A study of Mus musculus with 4 samples.

Results

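The parotid mesenchyme library held 106 cells that carried epithelial transcripts, out of 4421 cells kept in that library and 14884 kept in the whole series. They were selected on measured values: at least 500 detected genes, at most 10% mitochondrial UMIs (unique molecular identifiers, each counting 1 captured RNA molecule), and a summed count of at least 5 UMIs over Epcam, an epithelial adhesion molecule, and Krt14 and Krt15, keratins of basal epithelial cells. The study took submandibular and parotid salivary glands of ICR mouse embryos at embryonic day 12, about 10 glands of each kind, and separated epithelium from mesenchyme with the enzyme Dispase II. Each of the 4 tissue fractions was dissociated with a cold protease and gave 1 droplet single-cell library, so that either gland had an epithelium library and a mesenchyme library. No group had a treatment or an engineered allele. The glands were pooled and each group is 1 library, so differences between libraries carry no replicate error. Every interval given is a 95% interval for counting error only.

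The parotid gland begins as a bud of the oral epithelium that grows into the surrounding mesenchyme and branches. Its tip cells, the end bud, respond to fibroblast growth factor (FGF) from the mesenchyme and come to express the transcription factor Sox10. The stalk leads back to the oral surface. To tell which region the 106 cells resembled, they were compared with the regions seen in the parotid epithelium library, where 1705 of 1854 kept cells passed the same rule.

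The 106 cells made up 2.40% of the kept cells (1.97 to 2.89%), and in the submandibular mesenchyme library 21 of 4842 kept cells (0.434%) passed. Their median depth was 8491.5 UMIs, against 7067 UMIs for the rule-passing cells of the parotid epithelium library and 5709 UMIs for the other 4315 kept cells of the mesenchyme library. None of their barcodes occurred in the parotid epithelium library. One barcode was shared with the submandibular epithelium library and 1 with the submandibular mesenchyme library, while the 2 parotid libraries shared 12 barcodes in all.

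The cells were epithelial by genes that the rule did not use. Summed over 19 other epithelial genes, their level was 1262 CPM (a gene's UMIs scaled to a common total of all UMIs of the group), against 29.8 CPM in the other kept cells of their library and 1538 CPM in the parotid epithelium cells. At least 3 of these genes were detected in 96 of the 106 cells and in 13 of the 4315 others. Spint2, a membrane-bound protease inhibitor, stood at 299 CPM in the 106 cells, 310 CPM in the parotid epithelium and 23.3 CPM in the other kept cells. Cldn6, a tight junction protein of embryonic epithelia, stood at 109 CPM, 92.6 CPM and 0.509 CPM in the same order. Of the genes used for the selection, Epcam was at 505 CPM in the 106 cells and 488 CPM in the parotid epithelium. Krt14 was at 617 and 1092 CPM and Krt15 at 1343 and 2386 CPM, respectively.

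Mesenchymal transcripts were scarce in them. A panel of 14 mesenchymal genes, among them the collagens Col1a1 and Col3a1 and the transcription factor Prrx1, took a median of 0.00695% of a cell's UMIs, against 0.348% in the other kept cells and 0% in the parotid epithelium cells. No panel UMI was seen in 47 of the 106 cells, the highest share was 0.299%, and 12 cells lay above 0.05%. As summed levels the panel stood at 238 CPM in the 106 cells, 3073 CPM in the other kept cells and 37.1 CPM in the parotid epithelium cells. No doublet caller was run, and the part of doublets or of free RNA in these mesenchymal counts was not tested. Haemoglobin transcripts, which come from red blood cells, took a median of 0.0661% of UMIs in the 106 cells, 0.0770% in the other kept cells and 0% in the parotid epithelium cells. One cell stood apart, with haemoglobin at 84.9% of its 20905 UMIs, whereas the next highest had 2.59%. Endothelial markers reached 3 or more UMIs in 2 of the cells.

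**Figure D1:**
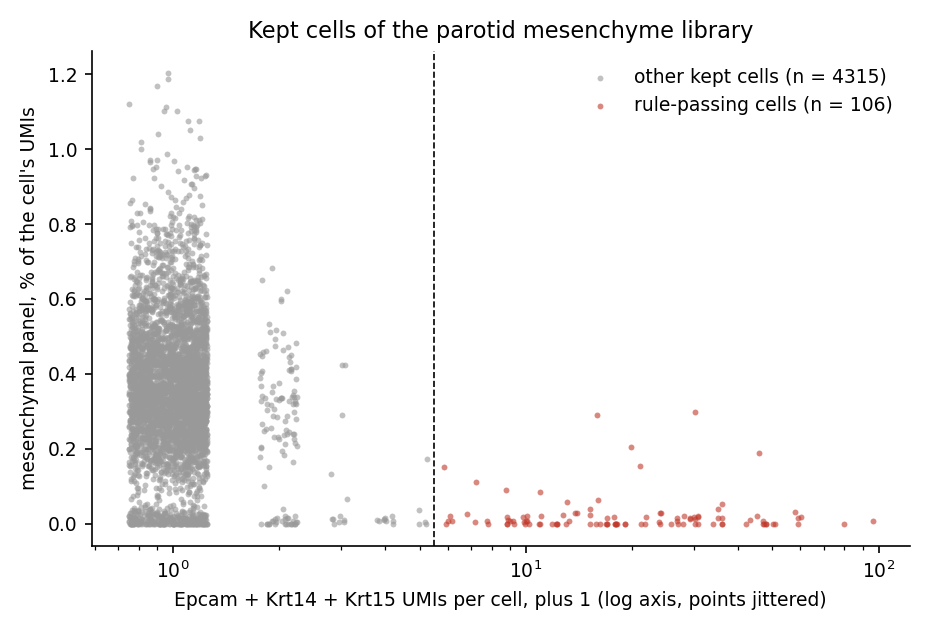
Each point is 1 of the 4421 kept cells of the parotid mesenchyme library, placed by its summed Epcam, Krt14 and Krt15 UMIs plus 1 (x, log axis) and by the share of its UMIs from the 14-gene mesenchymal panel (y, %). The dashed line marks the threshold of 5 UMIs, and the 106 cells to its right lie at or below 0.299%.

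Few cells lay near the threshold. Just outside it, 14 cells had 3 to 4 UMIs, with the 19 other epithelial genes at 372 CPM and the mesenchymal panel at 336 CPM. Just inside it, 8 cells had 5 to 6 UMIs, with levels of 921 CPM and 423 CPM. A sum of 7 to 14 UMIs was found in 34 cells and a sum of 15 or more in 64.

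By whole profile the 106 cells were closer to parotid than to submandibular epithelium. Across 6145 genes at 20 CPM or more in at least 1 profile, their summed profile on the log2(CPM + 1) scale had a Pearson correlation of 0.946 with the parotid epithelium, 0.913 with the submandibular epithelium and 0.768 with the other cells of their own library. These are descriptions across genes, which are not independent replicates. Of 22 genes that were at least 4-fold higher in parotid than in submandibular epithelium, 18 had a level nearer to that of the parotid on the log2(CPM + 1) scale, the exceptions being Nbl1, Skap2, Lmo1 and Krt7. In CPM only 7 of the 22 were nearer to the parotid and 15 nearer to the submandibular level, among them Cxcl14 and Krt5. Of 19 genes at least 4-fold higher in submandibular epithelium, 18 were nearer to the parotid level on the log2 scale and all 19 in CPM.

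To place the cells by region, the 1705 parotid epithelium cells were divided into 13 subsets by clustering, and each of the 106 cells was matched to the subset whose mean profile it correlated with best over 503 genes. The selection genes, and genes higher in the mesenchyme than in the subset they lead, took no part in the match. As a check, cells of the epithelium library were matched against subset profiles made from the alternate cells, and 1328 of 1705 (77.9%) found their own subset. The best correlation per cell had a median of 0.633 in the 106 cells and 0.646 in that check. The lowest was 0.168 in the 106 cells and 0.300 in the check. The value of 0.168 belonged to the cell with haemoglobin at 84.9% of its UMIs, which is counted below under subset 7. For 22 of the 106 cells the best subset led the next by less than 0.02.

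End bud cells and cells of a Wnt7b-rich subset were the most frequent matches apart from cycling cells. Subsets 3 and 8 were end-bud-like by 6 and 7 of the 9 markers, among them Sox10, Sox9 and the FGF-induced transcription factors Etv4 and Etv5. They took 30 of the 106 cells (28.3%, 20.0 to 37.9%), and held 16.8% of the parotid epithelium cells (15.1 to 18.7%). Subset 3, led by the neurotrophin receptor gene Ngfr and by Fam150b, which encodes a ligand of the receptor ALK, took 22 cells and was the most frequent match (20.8%, 13.5 to 29.7%). Subset 8, led by Lmcd1 and Igfbp3, took 8 cells, and its summed profile was the closest to that of all 106 cells (r = 0.846, against 0.840 for subset 3). The order of the most frequent subsets was not stable over 8 other settings of the matching. Subset 3 came first in 1 and a subset led by Anxa8 in 5. The Anxa8-led subset was subset 2, except with a threshold of 10 UMIs, where the epithelium cells were selected anew. In the other 2, with coarser or finer clustering, a subset led by Gjb2 (31.1%) or by Meis1 and Wnt7b (18.9%) came first.

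Cycle-led subsets and subsets 2 and 4 took nearly all of the rest. Subsets 1, 5 and 7, led by cell cycle genes such as Rrm2 of DNA replication and Ube2c and Ccnb2 of mitosis, took 39 cells (36.8%, 27.6 to 46.7%). They held 29.6% of the epithelium cells by cluster, and 28.4% were assigned to them in the check. Subset 2, led by the annexin gene Anxa8, the guidance cue gene Sema3a and Wnt7b, a WNT ligand gene, took 20 cells (18.9%, 11.9 to 27.6%). It held 14.5% of the epithelium cells by cluster, and 10.2% were assigned to it in the check. Subset 4, led by Rprm, an inhibitor of cell cycle progression, took 16 cells (15.1%, 8.88 to 23.4%), beside 9.44%. The periderm-like subset 11, led by Cldn23, Gabrp and Rhov, took 1 cell (0.943%, 0.0239 to 5.14%) and held 4.63% of the epithelium. It carried 5 periderm markers and also 6 duct and luminal markers (Krt7, Krt8, Krt18, Krt19, Cldn3 and Cldn4).

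None of the 106 cells matched the subsets in which Pitx1, a homeobox gene of the oral ectoderm, was under 30 CPM. This limit was set after the values were seen, and subsets 6, 9, 10 and 13 met it. Subset 9 was placode-like (Lhx2, Shh, Lef1), subset 10 was basal-ectoderm-like (6 of 8 markers), and subsets 6 and 13 were led by Irx2 or Arl4a together with Lmo1. They held 365 of the 1705 parotid epithelium cells (21.4%), and 26.9% of these cells were assigned to them in the check. A count of 0 among 106 allows a share of up to 2.83%, taken as 3 counts. Subset 12, with 61 cells, a median of 0.0838% mitochondrial UMIs and no name, also had no match, but only 15 of its own 61 cells found it in the check.

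**Figure D2:**
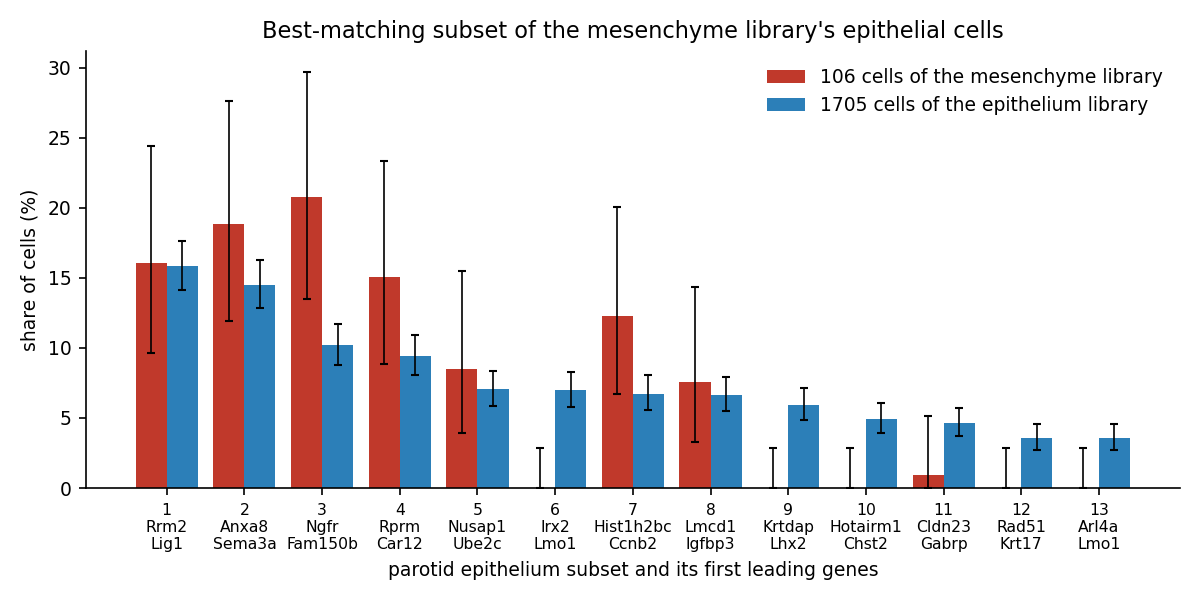
Share of cells (%) per parotid epithelium subset, for the 106 epithelial cells of the mesenchyme library by best match (red) and for the 1705 cells of the epithelium library by cluster (blue), with exact 95% binomial intervals for counting error, or up to 3 counts (2.83%) where no cell matched. Subsets 6, 9, 10, 12 and 13 have no red bar, and subset 3 has the tallest (20.8%).

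The cycle-led subsets blur region, so the match was repeated without them. The end-bud-like subsets then took 38 cells (35.8%, 26.8 to 45.7%), against 25.2% of the epithelium cells matched the same way. Subset 12 took 11 cells (10.4%, 5.3 to 17.8%), against 5.04% of the epithelium cells. The Pitx1-low subsets took 9 cells (8.49%, 3.96 to 15.5%), against 32.8% of the epithelium cells. All 9 had matched a cycle-led subset before, and 8 of them now fell to subset 13, whose leading genes include the mitotic genes Aurka and Plk1. In those 9 cells summed Cxcl14 stood at 178 CPM (14 UMIs in 4 cells) and Pitx1 at 63.6 CPM (5 UMIs in 3 cells), while subset 13 held 3134 CPM of Cxcl14 and 4.70 CPM of Pitx1.

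The levels of regional genes describe the match and are no separate test of it. Lhx2, Hotairm1 and Gabrp were among the leading genes of subsets 9, 10 and 11, and leading genes entered the match. Pitx1 stood at 132 CPM in the 106 cells and 138 CPM in the parotid epithelium, and at 157 CPM in the other kept cells. A Pitx1 UMI was found in 60 of the 106 cells. Lhx2, a LIM homeobox gene of placodes, had 1 UMI in the 106 cells (1.02 CPM), and reached 413 CPM in subset 9. Hotairm1, a noncoding RNA of the HoxA cluster, had 5 UMIs (5.12 CPM) and reached 298 CPM in subset 10. Gabrp, a receptor subunit gene that marks periderm-like subset 11 at 717 CPM, had 9 UMIs in 2 of the 106 cells. No UMI of Shh or Edar was found. Of 13 markers of other pouch and ectodermal derivatives 7 had no UMI and 1 reached 20 CPM. That 1 gene was higher in the 106 cells than in the parotid epithelium, by less than 2-fold (log2 ratio 0.83). Nkx2-1 of the thyroid, Gcm2 of the parathyroid and Oc90 of the ear had no UMI, and Foxn1 of the thymus had 1 UMI.

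**Figure D3:**
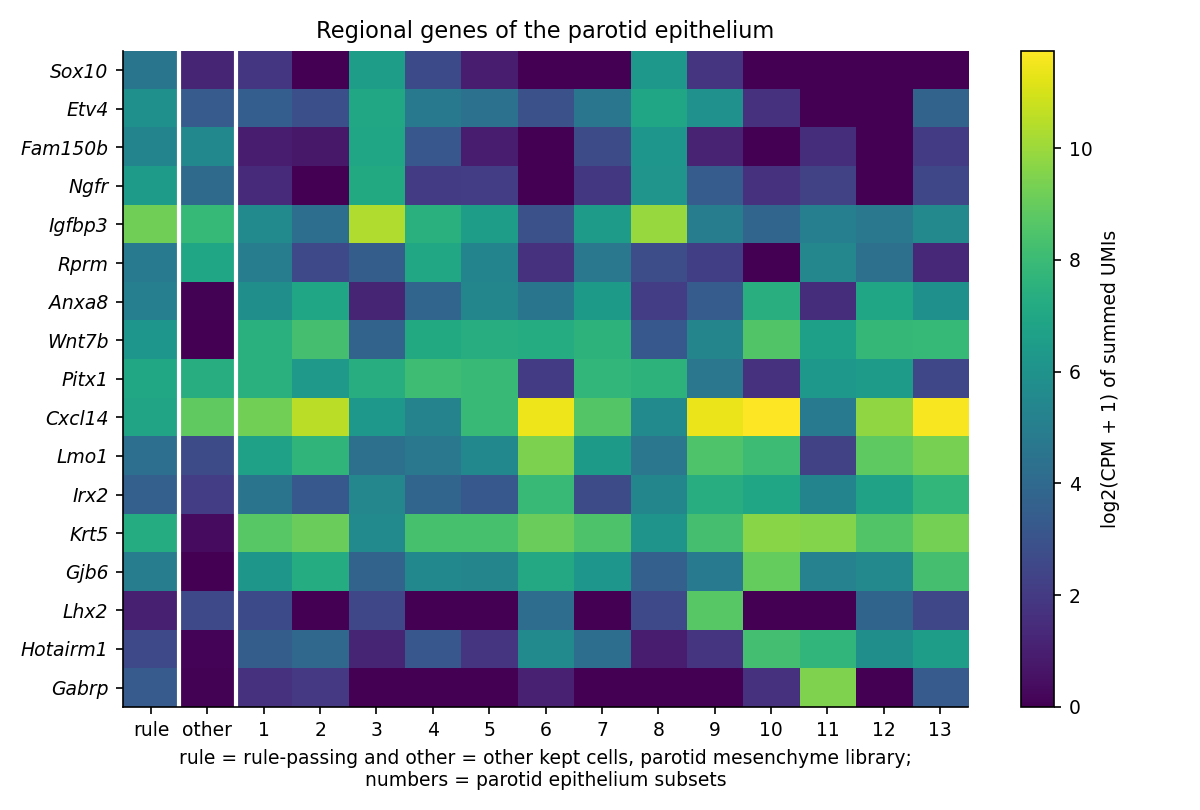
Levels of regional genes as log2(CPM + 1) of summed UMIs (colour) in the epithelial cells of the mesenchyme library (rule), the other kept cells of that library (other) and the 13 parotid epithelium subsets. Cxcl14 and Irx2 are brightest in subsets 6, 9, 10 and 13, Lmo1 in subsets 6 and 13, and all 3 are darker in the first column than in those subsets.

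Within the 30 end-bud-matched cells some bud genes stood near their level in the epithelium library, while Ngfr and Dkk4 stood higher. Sox10 was at 57.9 CPM, against 84.9 CPM in the bud subsets of the epithelium library. Etv4 was at 126 against 124 CPM, Fam150b at 92.2 against 96.9 CPM, and Igfbp3, an insulin-like growth factor binding protein gene, at 1351 against 1159 CPM. Ngfr was at 219 against 107 CPM, and Dkk4, which encodes a secreted WNT inhibitor, at 121 against 25.2 CPM with UMIs in 5 cells. These genes helped to define the subsets, so the likeness is a description of the match. The median depth of the 30 cells was 13317.5 UMIs, against 8748 UMIs in the bud subsets. Over all 106 cells, a Sox10 UMI was found in 11 (10.4%, 5.3 to 17.8%) and in 9.27% of the epithelium cells. After thinning every cell to 2000 UMIs the shares were 2.83% and 2.38%, with 27 shallower epithelium cells left out. In 59 endothelial-marker cells of the same library, used as background, no cell had a Sox10 UMI, which allows a share of up to 5.08%, and the median depth was 8452 UMIs.

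By list, basal ectoderm and periderm genes were lower in the 106 cells, and few end bud or FGF response genes differed by 2-fold. Of 11 end bud genes at 20 CPM or more, 9 were above and 2 below their level in the parotid epithelium, 2 of them by 2-fold (Col9a1, 35.8 against 15.9 CPM, and Mia, 20.5 against 9.06 CPM, both genes of secreted matrix proteins). The median log2 ratio was 0.26, against -0.06 over all 5603 genes at that level, of which 1.64% were 2-fold higher and 1.77% 2-fold lower. Of 9 FGF response genes 6 were higher and 3 lower, and 0 of them by 2-fold (median 0.18). Against parotid epithelium cells without a Xist UMI these medians became 0.024 (end bud) and 0.00059 (FGF response). Of 13 basal ectoderm genes 11 were lower, 7 of them by 2-fold (median -1.02): Cxcl14, Krt5, Krt17, Wnt6, Gjb2, Gjb6 and Tfap2b. Of 6 periderm genes 4 were 2-fold lower (median -1.44), and of 9 duct and luminal genes 4 were (Krt7, Krt19, Cldn3, Gata3), while Krt8 and Krt18 stood 1.46-fold and 1.47-fold higher.

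In most other lists only some genes differed by 2-fold. The mesenchymal and erythroid lists were higher: 4 of 6 interstitial matrix genes (median 3.66), 5 of 5 mesenchymal panel genes (4.28) and 7 of 7 erythroid genes (10.1) by 2-fold. The 4 matrix genes are also on the panel, and the 7 erythroid genes are haemoglobin genes. Of 6 placode genes 3 were 2-fold lower (Lhx2, Wnt10a and the hedgehog receptor gene Ptch1) and 1 higher (Dkk4). Of 7 oral epithelium genes 1 was 2-fold lower (Wnt7b, median -0.35). Of 14 adhesion and junction genes 3 were 2-fold lower (Cldn3, Gjb2, Gjb6), and of 17 epithelial genes 3 were, Krt5 and Cldn3 among them. Of 7 mesenchymal state regulators 3 were 2-fold higher, namely Prrx1, the N-cadherin gene Cdh2 and Vim, a filament protein gene, at 23.5, 25.6 and 171 CPM. In the other kept cells these 3 stood at 375, 45.9 and 1006 CPM. No marker of skeletal muscle, macrophages or melanocytes and Merkel cells reached 20 CPM in either group.

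Reweighting by region moved most of these medians. The parotid epithelium profile was reweighted so that each subset had the share of cells it had among the 106 cells. The end bud median then became -0.08, the duct and luminal median -0.07 and the periderm median 0.11. These weights count cells, whereas the profile of the 106 cells sums UMIs. The end-bud-matched cells were deeper (median 13317.5 UMIs) than those matched to subsets 2, 4 and 11 (5562 UMIs). The reweighted profile therefore gives the end bud less weight than the summed cells do, and weighting by UMIs was not tested. The basal ectoderm median became -0.69 and was still below the median over all genes of -0.05. The weights came from a match on leading genes of the subsets, so the reweighted values are no separate test of region. The lists were chosen with results of these data known, and their medians are descriptions.

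Gene by gene, 24 of 2942 genes tested (0.816%) were at least 2-fold higher in the 106 cells than in the parotid epithelium cells at 50 CPM or more, and 33 (1.12%) were lower. Of the 24, 7 were haemoglobin genes and 9 stood higher still in the other cells of the library (among them Pantr1, Vim, Csrp2, Pcdh17, Mfap4, Igfbp4 and Lgals1). Pantr1, a noncoding RNA, had 69.6 CPM in the 106 cells, 0.156 CPM in the parotid epithelium and 1319 CPM in the other kept cells. For the haemoglobin gene Hba-a1, 5778 of 6141 UMIs came from 1 cell. Against the reweighted profile, 22 of 2934 genes (0.75%) were higher and 18 (0.613%) lower. In both comparisons 21 genes were higher and 13 lower.

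The remaining 8 higher genes were at or above their level in the other cells. Car2 and Ctla2a rested on a single cell each: all 51 UMIs of Car2, a carbonic anhydrase gene, and 135 of 141 UMIs of Ctla2a came from 1 cell. Spon2, which encodes a secreted matrix protein, had 125 CPM in the 106 cells (122 UMIs in 31 cells, 24 of them in 1 cell). It had 34.7 CPM in the parotid epithelium, 58.1 CPM in the submandibular epithelium and 0.781 CPM in the other kept cells, and so was 3.60-fold higher than in the parotid epithelium (2.92 to 4.41). Within the end-bud-matched cells it stood at 258 CPM, against 66.5 CPM in the bud subsets. Ngfr stood at 89.0 CPM (87 UMIs in 26 cells), against 24.4 CPM in the parotid epithelium (3.65-fold, 2.85 to 4.65). It had 61.9 CPM in the submandibular epithelium and 15.9 CPM in the other kept cells. The log2 ratio of Ngfr to the parotid epithelium was 1.87, and fell to 1.34 against the reweighted profile. That profile counts the deeper end-bud-matched cells by number and not by UMIs, so how much of the 1.34 lies within a region was not tested. An Ngfr UMI was found in 24.5% of the 106 cells and in 8.62% of the epithelium cells, and after thinning in 12.3% and 3.69%. The background share in endothelial-marker cells was 1.69% before thinning.

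The other 4 differed less. Igfbp3 stood at 593 and 286 CPM (2.07-fold, 1.90 to 2.27), and its log2 ratio fell to 0.56 against the reweighted profile. It stood at 234 CPM in the other kept cells, but at 811 CPM in the 59 endothelial-marker cells of the library. Nme2, a nucleoside diphosphate kinase gene, stood at 113 and 50.3 CPM and at 105 CPM in the other kept cells. Its reads can be shared with its close neighbour Nme1, so the value is uncertain. Spag7 stood at 71.6 and 33.0 CPM. For Smim3, 29 of 51 UMIs came from 1 cell, and its direction turned when the 12 cells above 0.05% on the mesenchymal panel were left out (log2 ratio -0.13). Dkk4 was under the 50 CPM limit at 47.1 CPM, against 9.69 CPM, and 23 of its 46 UMIs came from 1 of 5 cells.

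Among the lower genes Cxcl14, a chemokine gene (GRCm38 chromosome 13, 56288643 to 56296551, minus strand), had the largest difference in CPM, while by fold Xist and Lmo1 differed more. Cxcl14 had 114 CPM in the 106 cells, 996 CPM in the parotid epithelium, 463 CPM in the other kept cells of the library and 0.992 CPM in the submandibular epithelium. The level in the parotid epithelium was 8.77-fold higher than in the 106 cells (7.27 to 10.7). Reweighting to the same shares of cells per subset left a log2 ratio of -2.05. In the 20 cells matched to subset 2 Cxcl14 stood at 302 CPM, against 1480 CPM in subset 2, and in the 30 end-bud-matched cells at 100.1 against 63.5 CPM. Lmo1, a transcriptional cofactor gene (chromosome 7, 109138572 to 109175207, minus strand), had 18 UMIs in 12 of the 106 cells (18.4 CPM), against 177 CPM in the parotid epithelium, and its log2 ratio was -2.11 after reweighting.

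Other lower genes divided by what reweighting left. The homeobox gene Irx2 (11.3 against 61.8 CPM) and the glucose transporter gene Slc2a3 (25.6 against 96.1 CPM) were within 2-fold of the reweighted profile, with log2 ratios of -0.89 and -0.70. The keratin gene Krt17 turned to 0.53. Irx2, Slc2a3 and Krt17 are among the leading genes of subsets 6, 11 and 9, in that order. Leading genes entered the match that set the weights, so these shifts are no separate test of region. Krt7, a keratin of simple epithelia, had 9 UMIs in the 106 cells (9.21 against 67.6 CPM), and its log2 ratio after reweighting was -2.05. The connexin gene Gjb6 (30.7 against 90.3 CPM), Sema3a (25.6 against 66.9 CPM), Krt19 (48.1 against 107 CPM), Wnt7b (70.6 against 149 CPM) and the small heat shock protein gene Hspb1 (23.5 against 101 CPM) were more than 2-fold lower in both comparisons. Gjb6, Sema3a and Wnt7b are among the leading genes of subset 2, whose matched cells were shallow (median 5304 UMIs). Their reweighted ratios therefore depend on weighting by cells, and weighting by UMIs was not tested. With a stricter cell filter of 1000 genes and 5% mitochondrial UMIs in both libraries, which kept 53 of the cells, 69 genes were lower instead of 33.

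**Figure D4:**
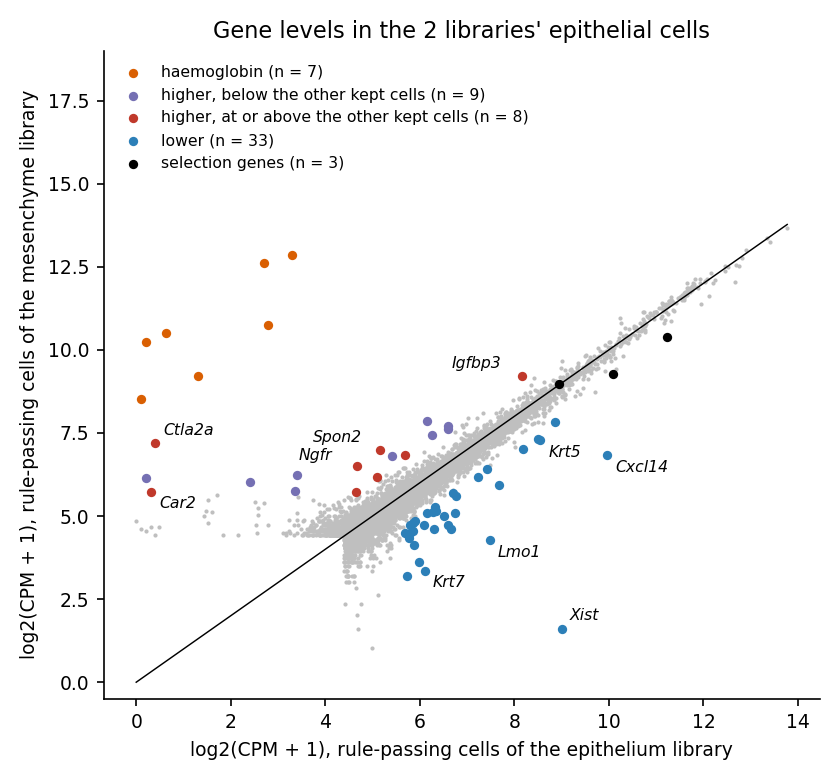
Level of each gene at 20 CPM or more in either group, as log2(CPM + 1) of summed UMIs, in the parotid epithelium library (x) and the 106 epithelial cells of the mesenchyme library (y), with the line of equal levels. Coloured points are the 24 higher and 33 lower genes and the 3 selection genes, and Xist lies lowest among the lower genes.

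Hypoxia and glycolysis genes lay lower in the 106 cells, most of them by less than 2-fold. None of the 18 proliferation genes on the list reached 2-fold (median -0.25), and Rrm2 stood at 306 against 325 CPM. Outside that list Aurka and Prc1, leading genes of the cycle-led subset 5, were among the 33 lower genes. They were not among the lower genes against the reweighted profile. All 11 hypoxia and glycolysis genes were lower, 1 of them by 2-fold (median -0.56, and -0.61 after reweighting). Eno1, a glycolytic enzyme gene, stood at 424 CPM against 834 CPM in the parotid epithelium and 299 CPM in the other cells of its library, and was more than 2-fold lower against the reweighted profile (log2 ratio -1.06). Of 13 immediate early and heat shock genes 9 were lower (median -0.47), 2 of them by 2-fold (Hspa1a and Hspb1). None of 8 basement membrane genes reached 2-fold.

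Sex-linked transcripts, examined after their values were seen, followed the library. Xist, the noncoding RNA of the inactive X chromosome (chromosome X, 103460366 to 103483254, minus strand), was found in 2 of the 106 cells (1.89%, 0.23 to 6.65%), in 1.55% of the other kept cells of the library and in 53.0% of the parotid epithelium cells. After thinning the shares were 0%, 1.21% and 42.1%. At least 1 UMI of the Y-linked genes Ddx3y, Eif2s3y, Uty and Kdm5d was found in 62 of the 106 cells (58.5%, 48.5 to 68.0%), in 57.9% of the other kept cells and in 23.2% of the parotid epithelium cells. The share of cells with these transcripts thus differed between the 2 parotid libraries, and an effect of sex or embryo on the other genes cannot be told apart from one of the library. With the parotid epithelium limited to cells without a Xist UMI, 24 genes were higher and 24 lower, and the log2 ratios of Cxcl14 and Lmo1 were -2.36 and -2.49.

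**Figure D5:**
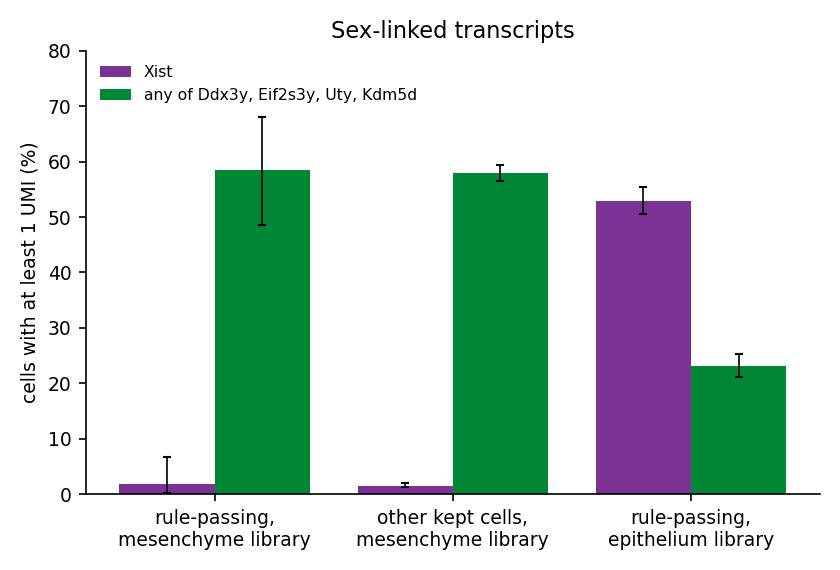
Share of cells (%) with at least 1 UMI of Xist (purple) or of any of 4 Y-linked genes (green) in 3 groups of cells, with exact 95% binomial intervals for counting error. The epithelial cells of the mesenchyme library stand at 1.89% and 58.5%, near the other cells of that library and apart from the epithelium library at 53.0% and 23.2%.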

How the data were processed

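UMI counts per gene and cell were used as deposited by the authors. Per the submitters' processing notes they were made with Cell Ranger 2.1.1 on mm10, the same assembly as GRCm38. Cells were kept at 500 genes and 10% mitochondrial UMIs. Counts were summed per group and scaled to CPM. Ratios have exact conditional binomial intervals and shares exact Clopper-Pearson intervals; groups at 0 UMIs were set to 3 UMIs, and a share of 0 has 3 counts as its limit. With 1 library per group no p-value was computed. A gene counted as changed at 50 CPM in the higher group and 2-fold. Parotid epithelium cells were clustered with scanpy 1.11.5 (2000 variable genes, 30 components, 15 neighbours, Leiden resolution 0.8), and 50 leading genes per subset entered the matching. Scripts were tested on simulated data. TMM factors came from edgeR 4.0.16.

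The members, gene lists and comparisons were chosen with earlier results of these data known. Named genes are the 12 highest and 12 lowest ratios past the size rule (the higher ones also at or above the other cells of the library, which left 8), up to 4 genes per list by ratio and 3 by level, and the 6 leading genes of each subset; haemoglobin, sex-linked and other genes named outside this rule were chosen after their values were seen. Some named genes are not reported here. The 2 parotid libraries entered most comparisons, with submandibular epithelium as a further profile. Coordinates are from GENCODE vM21 on GRCm38.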

Additional observations from a re-analysis of the deposited data

How the results depend on the processing

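No paired analysis was possible because each group had 1 library. For the same reason no library could be left out, and depth limits single genes: Sox10, Irx2, Lmo1, Krt7 and Hotairm1 each rest on 5 to 22 UMIs in the 106 cells. The share of epithelial cells in the mesenchyme library was 2.40%, 1.83% with a threshold of 10 UMIs and 1.50% with 1000 genes and 5% mitochondrial UMIs. The counts of 24 higher and 33 lower genes became 92 and 99 with a minimum of 20 CPM. The lower count was 14 with a minimum of 100 CPM (fewer genes tested), 69 with 1000 genes and 5% mitochondrial UMIs, where the cause was not tested, and 18 after reweighting. The most frequent subset took 31.1% at Leiden resolution 0.4 (fewer subsets). The highest subset correlation was 0.872 at resolution 0.4, 0.876 at 1.2 and 0.811 as a Spearman correlation. Pitx1-low subsets took 0 to 3 cells in every matching setting except that without cycle-led subsets (8.49%). Leaving out cells above 1% on the mesenchymal panel removed no cell, so its values repeat the reported ones and are not counted. Of the other 88 alternatives to the list medians 69 stayed within 0.25 of the reported value, 19 of them with TMM factors, which shift every gene by 0.014. Reweighting gave medians of -0.075 (end bud), -0.072 (duct and luminal), -0.69 (basal ectoderm), -0.26 (placode), 0.11 (periderm, turned), -0.21 (adhesion and junction), -0.075 (FGF response), 0.62 (mesenchymal state regulators) and 3.39 (interstitial matrix). Limiting the epithelium to cells without a Xist UMI gave -0.19 (placode), -0.76 (periderm), -0.65 (oral epithelium), -0.31 (WNT response), 0.61 (mesenchymal state regulators), 4.82 (mesenchymal panel) and 9.74 (erythroid). A minimum of 50 CPM gave -0.082 (oral epithelium), and leaving out the 12 cells above 0.05% on the panel gave 1.85 (interstitial matrix) and 2.03 (mesenchymal panel). Of 100 alternatives to single-gene ratios 83 stayed within the counting interval and 2 turned: Krt17 to 0.53 after reweighting and Smim3 to -0.13 without those 12 cells. Reweighting used shares of cells, and shares of UMIs were not tested. Reweighting, the leave-outs of cells and the match without cycle-led subsets were chosen after seeing the data.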
